A study of Mus musculus with 14 samples.

Results

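The genes described here are 44 genes of mitosis and the spindle. They were chosen by name, with earlier results of these data known, as G2/M regulators, kinetochore proteins, condensin subunits and spindle proteins. They were followed in mouse bone marrow cells with and without Dpy30, a core component common to SET1 and MLL complexes, the enzymes that methylate lysine 4 of histone H3. All 44 were found among the 38926 genes counted in the LSK and MyePro libraries and among the 39179 counted in the libraries of long-term hematopoietic stem cells (LT-HSC). LSK cells are a marker-defined bone marrow fraction rich in stem cells and early progenitors, and MyePro is the labels' name for a further sorted population, read here as myeloid progenitors, whose gate is not given in the sources used here.

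Control cells were Mx1-Cre; Dpy30F/+ and knockout (KO) cells were Mx1-Cre; Dpy30F/-, so both carried the Cre and 1 floxed allele, beside a wild-type allele in the controls and a null allele in KO. Mx1-Cre is switched on by pIpC, an interferon inducer that both genotypes received, and is not restricted to blood cells. Donor marrow (CD45.2+) was mixed with C57Bl/6J competitor marrow (CD45.1+) and transplanted into irradiated recipients. From 7 weeks later the recipients had 4 injections of pIpC at 7.5 µg/g over 10 days, and bone marrow was taken for sorting when 2 weeks had passed since the last one. LSK and MyePro of either genotype were 1 library each, pooled from 2 to 3 chimeras. The LT-HSC libraries were 2 control and 2 KO, from transplants 1 and 2, each pooled from 7 to 9 chimeras and amplified before library preparation, which the other RNA was not.

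Gene counts ran from 6130320 in KO LSK to 20820762 in control MyePro, and from 38060087 to 85499797 in LT-HSC. Dpy30 itself stood at 78.0 CPM (counts scaled to 1000000 per library, with TMM factors) in control LSK, 41.7 in KO LSK, 116 in control MyePro and 51.6 in KO MyePro. The LT-HSC controls held 12.9 and 8.43 CPM of it, but 14.1 and 4.67 were found in the libraries labelled KO of transplants 1 and 2. The first of these was above both controls, so its Dpy30 level goes against its label. The reason was not tested, and KO LSK and KO MyePro also kept part of this RNA. Kit, the receptor that defines both LSK cells and myeloid progenitors, was at 491 (control) and 386 CPM (KO) in LSK and at 403 and 240 in MyePro. Of the stem cell markers, Procr was at 13.9 and 12.3 CPM in LSK and at 0.974 and 1.75 in MyePro, but others lay further apart in the LSK pools: Hlf was at 194 (control) and 44.5 CPM (KO), Mecom at 41.5 and 10.3, Slamf1 at 14.3 and 5.95 and Ly6a at 31.5 and 61.1. Other cell types' markers and library quality are given beside the results they move with.

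Mitosis is the short phase in which a cell condenses its copied chromosomes, attaches them to the spindle and pulls them apart. Cyclin B with CDK1 drives entry, Aurora and Polo-like kinases build the spindle, a checkpoint holds anaphase until every kinetochore is attached, and the anaphase-promoting complex then releases the sister chromatids. RNA of most of these genes is low in resting cells and peaks in G2 and M, under the control of the DREAM and MuvB complexes, B-MYB, FOXM1 and NF-Y, so in sorted cells its level is widely used as a readout of how many cells are cycling. Adult stem cells are mostly resting, whereas LSK and myeloid progenitors cycle more. In such bulk libraries, fewer cells in mitosis and less of each RNA per cell cannot be told apart.

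Many but not all of the genes share short sequences in their promoters. Windows of 6 genes are shown because these letters are known landing sites of factors named above. RefSeq windows (GRCm38.p6) were found for 39 of the 44 genes, with 2 windows for each of 2 of them, Ect2 and Prc1. Searched on both strands of the 250 bases before each start were the cell cycle homology region (CHR, TTTGAA or TTCGAA), which MuvB binds, and the CCAAT box, which NF-Y binds. CHR letters were in 17 of 41 windows (41.5%) against 17.1% of all 32851 windows of that length, and CCAAT letters in 31 of 41 (75.6%) against 33.8%. Both were present in 15 of 41 (36.6%) against 6.02%, and in no window did they overlap. The printed windows are those with a CHR among the genes described by name, taken from the lowest KO LSK ratio upwards and cut to the bases that lie outside every annotated gene, 5′ to 3′ on the gene's strand, with CHR and CCAAT letters of either strand in capitals. Ect2, the second in that order, is not shown because the whole window lies inside annotated genes.
Mki67 (chr7:135716451-135716629, minus strand): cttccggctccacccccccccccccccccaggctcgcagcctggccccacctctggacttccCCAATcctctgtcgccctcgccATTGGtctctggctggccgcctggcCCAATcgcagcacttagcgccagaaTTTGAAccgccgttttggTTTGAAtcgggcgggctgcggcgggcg
Kif15 (chr9:122951001-122951080, plus strand): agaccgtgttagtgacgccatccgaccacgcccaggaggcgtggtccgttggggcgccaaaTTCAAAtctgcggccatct
Bub1b (chr2:118597961-118598201, plus strand): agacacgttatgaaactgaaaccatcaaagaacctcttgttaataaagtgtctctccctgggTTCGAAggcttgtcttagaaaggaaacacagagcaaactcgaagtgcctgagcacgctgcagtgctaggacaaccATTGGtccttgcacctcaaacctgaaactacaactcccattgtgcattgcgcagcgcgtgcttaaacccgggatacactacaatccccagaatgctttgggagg
Top2a (chr11:99024200-99024439, minus strand): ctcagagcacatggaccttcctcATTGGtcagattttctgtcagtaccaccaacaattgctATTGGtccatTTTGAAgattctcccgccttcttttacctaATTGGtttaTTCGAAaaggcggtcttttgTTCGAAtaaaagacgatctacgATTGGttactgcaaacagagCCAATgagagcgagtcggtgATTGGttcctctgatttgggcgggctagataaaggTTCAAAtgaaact
Kif11 (chr19:37376132-37376381, plus strand): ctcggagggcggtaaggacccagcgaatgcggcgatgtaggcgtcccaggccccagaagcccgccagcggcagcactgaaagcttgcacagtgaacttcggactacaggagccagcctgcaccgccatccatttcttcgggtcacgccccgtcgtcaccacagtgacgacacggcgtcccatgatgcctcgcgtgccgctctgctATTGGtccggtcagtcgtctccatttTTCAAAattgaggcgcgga
Ube2c (chr2:164769679-164769928, plus strand): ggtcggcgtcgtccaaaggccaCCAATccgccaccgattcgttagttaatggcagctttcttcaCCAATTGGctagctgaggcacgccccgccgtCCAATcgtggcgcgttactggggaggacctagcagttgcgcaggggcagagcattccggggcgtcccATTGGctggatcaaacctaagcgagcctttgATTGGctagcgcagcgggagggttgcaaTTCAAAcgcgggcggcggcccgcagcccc

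In 10 of the genes a CHR began within 40 bases of the start, as in Kif15 and Kif11 (19 bases before it), Top2a (23) and Ube2c (29), where it reads TTCAAA because the match lies on the opposite strand. In Mki67 the 2 CHR matches lay 116 and 98 bases before the start used. The last 71 bases of that window lie inside the gene's own annotated span, so the matches are nearer to its annotated start. In Bub1b the CHR lay 188 bases before the start. Top2a had the most CHR matches among the printed genes, with 4, beside 6 CCAAT boxes. These matches are letters in a window and show no binding.

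**Figure D1:**
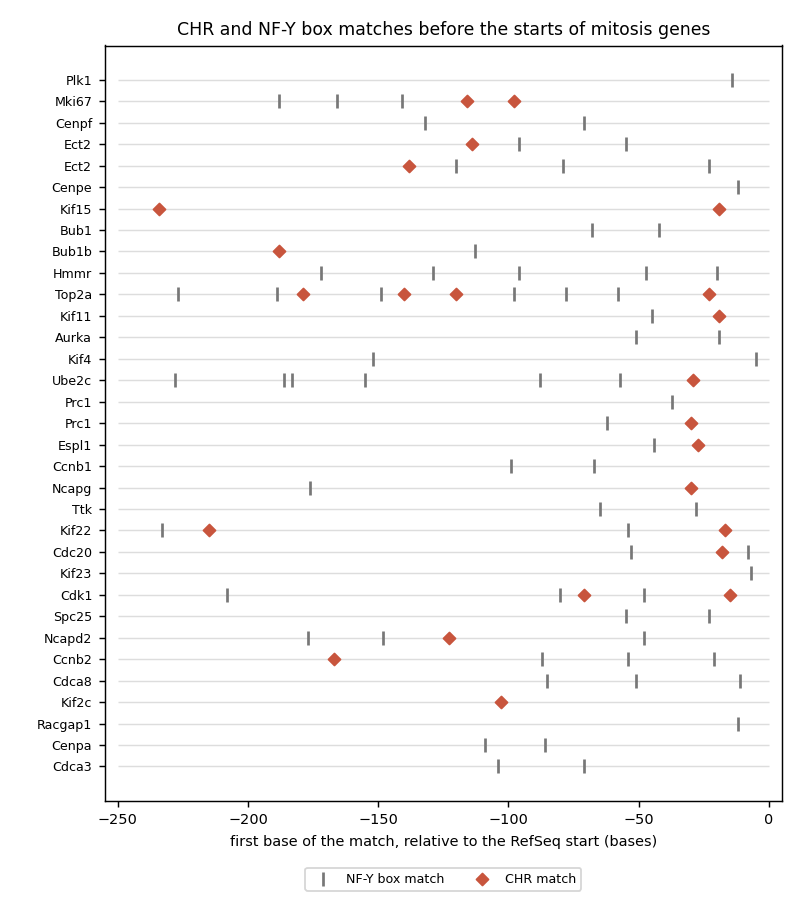
Positions of CHR matches (red diamonds) and CCAAT boxes, labelled as NF-Y boxes (grey bars), in the 33 of 41 promoter windows that held either; the x axis is the distance of the first base from the RefSeq start in bases, and each line is 1 window, ordered by the LSK ratio. In 10 genes a CHR begins within 40 bases of the start.

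In LSK cells, all 44 genes were lower in the KO library than in the control library, with 42 of 44 lower when scaled by library totals, where Cdca3 and Spc24 turned to 0.11 and 0.08 on the log2 scale. Of all 10299 genes averaging 5 CPM or more in the 2 libraries, 55.4% were lower. The median log2 ratio was -0.65, or 63.9% of the control level, against -0.06 for all genes. At least 2-fold lower were 7 of 44 (15.9%), against 5.67% of all genes, and none was 2-fold higher, against 4.78%. Summed over the 44 genes, the level went from 6135 to 3924 CPM. For 42 genes the 95% interval, which covers counting error only, lay below 0, and for Cdca3 and Spc24 it spanned 0. With 1 library per group there is no replicate check and no test, in LSK or in MyePro.

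In MyePro cells, 43 of 44 were lower in KO, under every scaling tried, against 57.3% of 10249 genes. The exception was Racgap1, whose log2 ratio was 0.03 with an interval from -0.06 to 0.12. The median ratio was -0.71, or 60.9% of control, against -0.12 for all genes. At least 2-fold lower were 10 of 44 (22.7%), against 8.63% of all genes, and none was 2-fold higher, against 10.7%. The summed level went from 6114 to 3664 CPM. The LSK and MyePro comparisons share no library, but their 4 libraries were normalized together. Whether their pools shared mice was not checked.

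**Figure D2:**
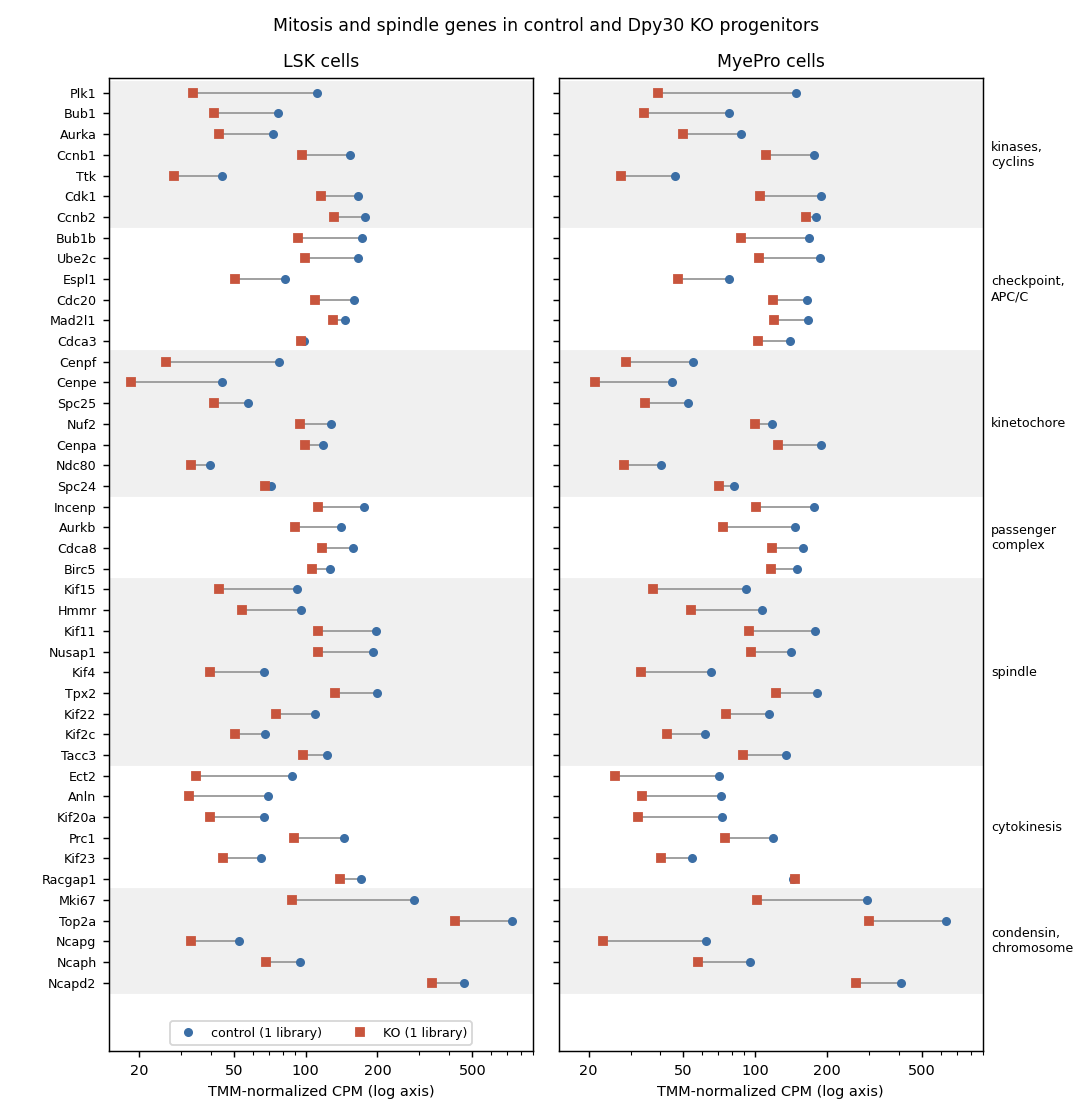
TMM-normalized CPM (log axis) of the 44 genes in control (blue circles) and KO (red squares) LSK and MyePro, 1 library each, grouped by role. The KO square lies left of the control circle for every gene in LSK and for all but Racgap1 in MyePro; with library totals Cdca3 and Spc24 would lie right of it in LSK.

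Among the mitotic kinases and cyclins, Plk1, the Polo-like kinase that acts from mitotic entry to cytokinesis, had the lowest ratio of all 44 genes in both populations (ENSMUSG00000030867; GRCm38.p6, chromosome 7, 122159435 to 122169884). It stood at 112 CPM in control LSK and 33.8 in KO LSK, and at 148 in control MyePro and 39.2 in KO MyePro. Its log2 ratios were -1.72 (interval -1.94 to -1.53) and -1.91 (interval -2.06 to -1.77), so about -0.18 apart. Both KO libraries lay below both controls, although KO MyePro was above KO LSK.

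Bub1, the kinase that recruits checkpoint and centromere proteins, went from 76.8 to 41.1 CPM in LSK (-0.90) and from 77.7 to 34.2 in MyePro (-1.18), which put it past 2-fold in MyePro. Aurka, the Aurora kinase of the spindle poles, went from 73.3 to 43.3 (-0.76) and from 87.2 to 49.7 (-0.81). The cyclin-dependent kinase that drives entry, Cdk1, went from 165 to 116 (-0.51) and from 189 to 104 (-0.85). Its partners parted: Ccnb1 was lower alike in both (154 to 96.1 CPM, -0.68, and 176 to 111, -0.67), whereas Ccnb2 was closer to control (178 to 131, -0.44, and 179 to 163, -0.14). Ttk, the checkpoint kinase also known as MPS1, was at -0.66 and -0.75. The 7 genes of this group had medians of -0.68 in LSK and -0.81 in MyePro.

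None of the 6 checkpoint and anaphase genes was 2-fold lower, and their medians were -0.61 and -0.59. Bub1b, which encodes the checkpoint protein BUBR1 and whose CHR is shown above, was the lowest of them, from 172 to 92.8 CPM in LSK (-0.89) and from 168 to 87.5 in MyePro (-0.94). Ube2c, the ubiquitin-conjugating enzyme of the anaphase-promoting complex, went from 166 to 99.2 (-0.74) and from 187 to 104 (-0.85). Cdc20, the activator of that complex, went from 159 to 110 (-0.53) and from 165 to 119 (-0.47). Espl1, which encodes separase, the protease that opens cohesin, was at -0.68 and -0.71. Mad2l1, which holds CDC20 in check, was at -0.17 and -0.48. Cdca3, a trigger of mitotic entry, had the highest ratio of the 44 in LSK (98.8 to 95.4 CPM, -0.05, interval -0.19 to 0.08) and was at -0.44 in MyePro.

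Kinetochore and centromere genes ranged from -1.56 to -0.08 in LSK and from -1.07 to -0.21 in MyePro. Cenpf, a large protein of the outer kinetochore, went from 77.1 to 26.0 CPM in LSK (-1.56, interval -1.80 to -1.34) but from 55.0 to 28.8 in MyePro (-0.93). Cenpe, the kinesin that carries chromosomes to the spindle middle, went from 44.5 to 18.4 (-1.26) and from 44.7 to 21.3 (-1.07). The 4 subunits of the NDC80 complex, which grips the microtubule, were far nearer to control. Ndc80 itself went from 39.6 to 33.2 (-0.25) and from 40.4 to 28.2 (-0.52). Its partners Nuf2 (-0.43 and -0.24), Spc25 (-0.48 and -0.59) and Spc24 (-0.08 and -0.21) stayed within 2-fold. Cenpa, the histone H3 variant that marks the centromere, went from 118 to 98.9 (-0.26) and from 189 to 124 (-0.61).

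The chromosomal passenger complex, which corrects faulty attachments, had no gene past 2-fold. Its kinase Aurkb went from 140 to 90.6 CPM in LSK (-0.63) and from 147 to 73.4 in MyePro, where its ratio of -0.997 lay just inside 2-fold. Kif4 (-0.98) and Hmmr (-0.99) were the next inside that limit in MyePro, and Cenpe (-1.07) the first beyond it. The scaffold Incenp was at -0.63 and -0.81 and the targeting subunit Cdca8, borealin, at -0.43 and -0.44. Birc5, survivin, went from 127 to 107 (-0.25) and from 149 to 117 (-0.35), the smallest difference of the 4 subunits in both populations.

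Of the 9 spindle motors and microtubule proteins, Kif15 alone passed 2-fold, in both populations. This kinesin, which helps to keep the spindle bipolar, went from 91.6 to 43.3 CPM (-1.08) in LSK and from 91.5 to 37.3 (-1.29) in MyePro. Kif11, the main bipolar motor with which Kif15 overlaps in function, was less far below control: 197 to 113 (-0.80) and 178 to 94.0 (-0.92). Tpx2, which activates Aurora A on the spindle, went from 200 to 133 (-0.58) and from 182 to 123 (-0.57). The others lay between -0.33 (Tacc3) and -0.81 (Hmmr) in LSK and between -0.53 (Kif2c) and -0.99 (Hmmr) in MyePro.

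Cytokinesis genes included some of the lowest ratios and the one gene that was not below control in MyePro. Ect2, the exchange factor that activates RhoA at the cleavage plane, went from 88.0 to 34.5 CPM in LSK (-1.35) and from 70.3 to 25.8 in MyePro (-1.44). Anln, anillin, which scaffolds the contractile ring, went from 69.2 to 32.4 (-1.09) and from 71.7 to 33.4 (-1.10). Racgap1, the partner of Kif23 in the centralspindlin complex that recruits ECT2, went from 170 to 140 in LSK (-0.29) and from 144 to 147 in MyePro.

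Kif23 itself went from 64.7 to 44.9 CPM (-0.52) and from 54.1 to 40.2 (-0.43). Kif20a, a kinesin of the central spindle, went from 67.1 to 39.6 (-0.76) and from 72.7 to 32.4 (-1.16). Prc1, which bundles the central spindle, was at -0.70 and -0.67.

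In the last group, Mki67, which encodes the proliferation marker Ki-67 that coats mitotic chromosomes, went from 284 to 87.9 CPM in LSK (-1.69, interval -1.82 to -1.57) and from 294 to 102 in MyePro (-1.53, interval -1.62 to -1.44). It came next to Plk1 in both. Top2a, the topoisomerase that untangles sister chromatids, went from 733 to 421 (-0.80) and from 631 to 299 (-1.08).

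The condensin I subunits, which compact chromosomes, did not move alike. Ncapg went from 52.5 to 33.0 CPM in LSK (-0.67) and from 62.0 to 23.1 in MyePro (-1.42). Ncapd2 went from 463 to 339 (-0.45) and from 407 to 263 (-0.63), and Ncaph was at -0.46 and -0.72.

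Across the 44 genes the LSK and MyePro ratios ranked alike. Pearson's r was 0.82 and Spearman's rho 0.84 (n = 44), but over all 9973 genes at the minimum in both they were 0.75 and 0.73, so a like order was general to these libraries. The 6 genes 2-fold lower in both were Plk1, Mki67, Ect2, Cenpe, Anln and Kif15, which are 6 of 7 in LSK and 6 of 10 in MyePro. Of all genes, 5.67% were 2-fold lower in LSK and 8.63% in MyePro. The share of all genes lower in both is not given here, so the overlap is not read as particular to the mitosis genes. Scaled by library totals, Anln and Kif15 were no longer past 2-fold in LSK, nor Cenpe and Top2a in MyePro, which left Plk1, Mki67 and Ect2 past it in both. The MyePro ratio was within 0.5 of the LSK ratio for 42 genes. The exceptions were Cenpf, whose ratio was nearer to 0 in MyePro (difference 0.63), and Ncapg, whose ratio was lower there (difference -0.75). Whether such differences exceed the spread between mice was not tested.

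**Figure D3:**
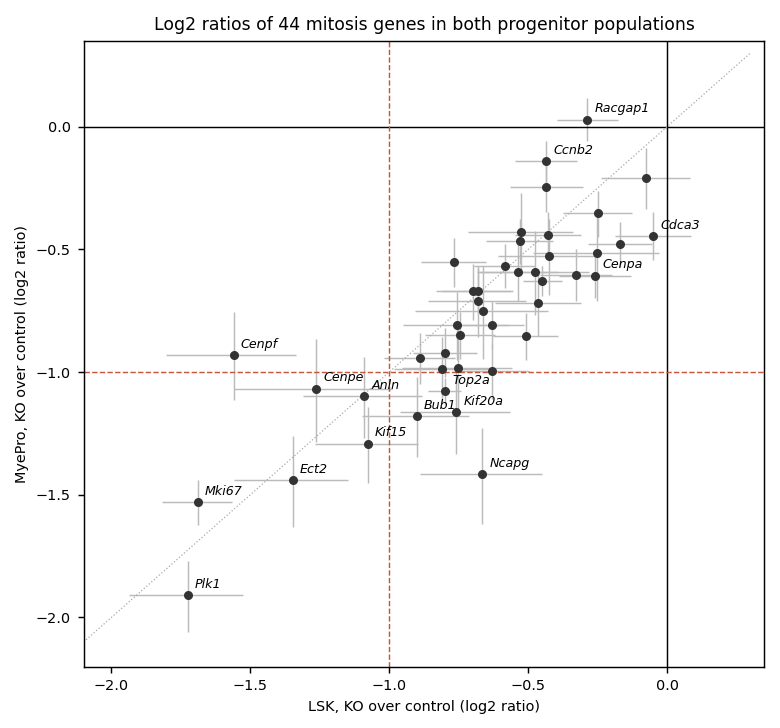
Log2 ratios of KO over control for the 44 genes in LSK (x axis) and MyePro (y axis), with 95% intervals for counting error only; the red dashed lines mark 2-fold lower and the dotted line equal ratios. The 6 genes in the lower left corner passed 2-fold in both populations, with Plk1 at -1.72 and -1.91.

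The step from LSK to MyePro left the genes' level nearly the same in either genotype. In controls the summed level of MyePro was 99.7% of that of LSK, the median log2 ratio was 0.02 against 0.08 for all genes, and 17 of 44 were below 0, against 42.1%. The sign of the median depended on the scaling. None of the 44 passed 2-fold in either direction, against 6.87% of 10074 genes lower and 3.17% higher. The ends were Cenpf (-0.49) and Cenpa (0.68). In KO the summed level was 93.4%, the median was -0.11 against 0.01, 26 of 44 were below 0, against 48% of all genes, and again none passed 2-fold, against 1.49% lower and 3.28% higher of 10345 genes. There the ends were Ncapg (-0.51) and Cenpa (0.33). With library totals this median was -0.26, against -0.13 for all genes, and 37 of 44 were below 0. These values come from the same 4 libraries as the KO ratios and so are not independent of them.

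Gene span and promoter letters were set beside the ratios as a description, without a test. Genes with longer genomic spans tended to have lower ratios (r = -0.44 with log10 span and rho = -0.53 in LSK, r = -0.29 and rho = -0.38 in MyePro, n = 44), whereas over 9110 protein-coding genes r was -0.06 and rho -0.12 in LSK and r was -0.002 and rho -0.02 in MyePro. The 16 genes with a CHR in a window had median ratios of -0.69 in LSK and -0.85 in MyePro, against -0.52 and -0.61 for the other genes with a window. For CCAAT the medians were -0.68 and -0.81 with the letters and -0.43 and -0.54 without. Among the genes printed above, Mki67 (-1.69) and Ube2c (-0.74) carry the same letters and lie far apart in LSK.

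A list of 73 other mitosis genes was less far below control. In LSK 64 of 73 were below 0 with a median of -0.41 and 1 was 2-fold lower, where 55.4% and 5.67% of all genes were. In MyePro 66 of 73 were below 0 with a median of -0.53 and 6 were 2-fold lower, against 57.3% and 8.63% of all genes. Knl1, the kinetochore scaffold that recruits BUB1, was lowest in both (67.2 to 23.4 CPM, -1.52, and 79.4 to 27.7, -1.51). Next lowest were Ckap2l, a spindle protein, in LSK (-0.95) and Kif20b, a cytokinesis kinesin, in MyePro (-1.23). At the other end stood Pttg1, which encodes securin, in LSK (15.6 to 31.2, 0.99), Troap, a spindle protein, in MyePro (19.2 to 30.2, 0.65) and Depdc1b in both (0.22 and 0.59). DNA replication genes, which act in S phase, had medians of -0.32 in LSK (33 of 40 below 0) and -0.63 in MyePro (36 of 39 below 0, 7 at least 2-fold lower, beside the same 57.3% and 8.63%).

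Of 9 genes for the regulators that act on such promoters, Mybl2, which encodes B-MYB, went from 82.5 to 45.5 CPM in LSK (-0.85) and from 113 to 49.6 in MyePro (-1.18). E2f4, a DREAM subunit, went from 182 to 126 (-0.53) and from 332 to 122 (-1.44). Foxm1 was at -0.43 and -0.44, Rbl1 at -0.32 and -0.55, and Rbl2 at 0.09 and -0.005. The MuvB subunits Lin9, Lin37 and Lin52 were above control in LSK (0.44, 0.45 and 0.53) and at -0.03, -0.03 and 0.22 in MyePro, and Lin54 was at -0.46 and -0.42.

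Markers of other cell types moved with the same comparisons, and their part in the mitosis values was not tested. Erythroid markers were lower in KO (11 of 14 at the minimum in LSK, all below 0, summed 1855 to 819 CPM, median -3.68; 12 in MyePro, 11 below 0, summed 6344 to 946 CPM, median -2.94). Klf1, the erythroid master regulator, was at 59.1 CPM in control LSK and 4.46 in KO LSK, and no erythroid marker was at 0 counts except Slc4a1 in KO LSK. Megakaryocyte markers went from 181 to 1756 CPM in MyePro (9 of 10 at least 2-fold higher) and from 714 to 958 in LSK. Mature neutrophil markers had higher sums in KO (34.1 to 301 CPM in LSK and 40.6 to 765 in MyePro). So had T and NK cell markers (209 to 582 and 213 to 645) and macrophage and dendritic markers (121 to 254 and 141 to 425). Only 4 of 9 neutrophil genes and 4 of 8 T and NK genes reached the minimum in either population. These were all at least 2-fold higher. Ltf in KO LSK and Camp, Cd3g and Cd8a in KO MyePro had 0 counts. Among controls, S100a8, S100a9, Retnlg, Cd3e and Cd3g had 0 counts in LSK, as had Camp and Ncr1 in MyePro. Macrophage and dendritic genes at the minimum were 7 of 8 in LSK and 8 in MyePro, with 0 and 1 below 0. Stem cell markers summed to 898 CPM in control and 627 in KO LSK (3 of 7 at the minimum at least 2-fold lower, median -0.35) and to 438 and 358 in MyePro (1 of 5 at least 2-fold lower and 3 higher, median 1.21). Summed myeloid progenitor markers went from 3130 to 2675 in LSK, where only 2 of 6 were below 0 and the median was 0.50. In MyePro their sum went from 11095 to 6222, with 4 of 6 below 0 and a median of -0.42. Entries that overlap ribosomal RNA took 5.37% and 1.69% of gene counts in control and KO LSK and 1.01% and 5.08% in control and KO MyePro. Mitochondrially encoded genes took 2.76% and 4.35% in control and KO LSK and 3.42% and 5.85% in control and KO MyePro, a higher share in KO in both. Without these entries and genes, the medians of the 44 genes were -0.646 in LSK and -0.714 in MyePro. In that setting 7 and 10 of them were at least 2-fold lower. Any other part of library quality in the mitosis values was not tested.

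**Figure D4:**
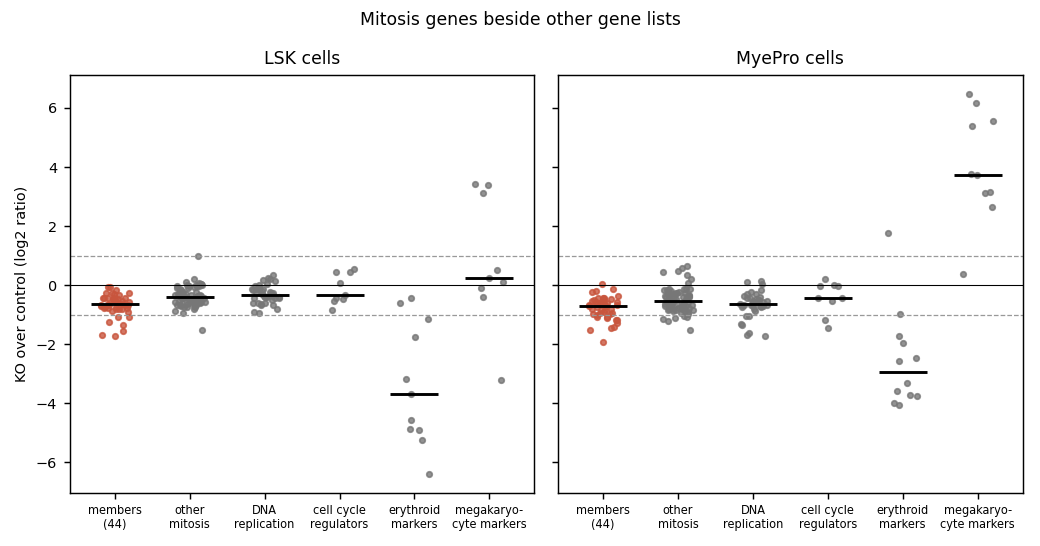
Log2 ratios of KO over control in LSK and MyePro for the 44 genes (red) beside other lists (grey), each point 1 gene at or above the 5 CPM minimum, bars at the median, dashed lines at 2-fold; the cell cycle regulators are Mybl2, Foxm1, E2f4, Rbl1, Rbl2 and 4 MuvB subunits. The 44 genes have medians of -0.65 and -0.71, the erythroid markers -3.68 and -2.94.

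In LT-HSC none of the 44 genes passed the test between the libraries labelled KO and the controls. All 44 passed the filter (1 CPM or more in 2 or more of the 4 libraries), and edgeR's quasi-likelihood test with Benjamini-Hochberg adjustment over 12844 genes called 0 of them, against 0.0156% of all genes called lower and 0% higher. At an unadjusted p under 0.05 it called 0 of 44, against 1.28% lower and 1.01% higher, and DESeq2 and limma-voom called 0 both adjusted and unadjusted. The smallest unadjusted p was 0.065 (Cdca8, edgeR's quasi-likelihood test, adjusted p 0.999). The standard errors given here were derived from each fold change and its F statistic in edgeR's test. Their typical size was 0.34 on the log2 scale (median over the genes). A p that misses the threshold does not show that levels were equal.

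The median log2 fold change was -0.12, against 0.00 for all genes, with 29 of 44 (65.9%) below 0, against 49.7%. For 8 of 44 genes (18.2%, against 13.9% of all genes) the libraries labelled KO were the 2 lowest, and for 1 (2.27%, against 13.8%) they were the 2 highest. The transplants gave different medians. In transplant 1, whose library labelled KO has Dpy30 above the controls, the median log2 ratio of the genes (0.1 CPM added) was 0.02 and 21 of 44 were below 0, and in transplant 2 it was -0.31 and 35 of 44 were below 0. Over all genes tested, the median log2 CPM was 3.22 in the control and 3.23 in the library labelled KO of transplant 1. In transplant 2 it was 3.26 and 3.23. The median fold change of the 44 genes was 0.0007 when the library labelled KO of transplant 2 was left out, against -0.017 for all genes. It was -0.27 when that of transplant 1 was left out, against -0.023 for all genes. Mitochondrial ribosomal RNA took 45.1% and 49.6% of gene counts in the controls and 62.4% and 49.3% in the libraries labelled KO, and with library totals in place of TMM the median was -0.49 while that of all genes was -0.35.

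Plk1 shows the split. The controls held 6.50 and 5.85 CPM of it, against 14.5 and 4.49 in the libraries labelled KO of transplants 1 and 2, for a log2 fold change of 0.62 ± 0.636 (SE, n = 2 a group). Its highest and lowest values were both in libraries labelled KO. Aurkb too was highest and lowest in the libraries labelled KO, at 20.3 and 24.6 CPM in the controls and 37.3 and 16.2 in those labelled KO (0.25 ± 0.432).

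Mki67 had 511 and 638 CPM in the controls and 594 and 454 in those labelled KO (-0.13 ± 0.289). Here the library labelled KO of transplant 1 lay between the controls and that of transplant 2 below both. Top2a, at 295 and 241 in the controls, lay between them in both libraries labelled KO, at 259 and 255 (-0.06 ± 0.255). Cenpf was at 80.7 and 115 in the controls and 91.1 and 70.3 in those labelled KO (-0.28 ± 0.292). Both groups overlap for each of these genes.

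Groups did not overlap for Cdca8, borealin, which had the lowest fold change of the 44, at 25.2 and 42.2 CPM in the controls and 18.6 and 21.2 in those labelled KO (-0.76 ± 0.347). Aurka was at 9.56 and 7.14 in the controls and 5.36 and 5.05 in those labelled KO (-0.68 ± 0.495). Ncapd2 was at 64.6 and 74.5 in the controls and 56.2 and 43.8 in those labelled KO (-0.47 ± 0.267). None of these 3 genes passed the test.

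The other 5 genes with both libraries labelled KO below both controls were Tpx2, Ndc80, Espl1, Cenpa and Bub1b, with fold changes from -0.44 to -0.20. Tpx2 was at 41.6 and 50.4 CPM in the controls and 31.4 and 36.4 in those labelled KO. Ndc80 was at 11.9 and 13.5 and at 8.27 and 10.7, in the same order. Cenpa was at 22.4 and 19.3 and at 13.9 and 17.99, and Bub1b at 33.8 and 33.1 and at 25.9 and 32.5, so that its second library labelled KO nearly met the controls. Kif2c, a kinesin that takes microtubules apart at the centromere, was the one gene above in both, at 5.68 and 4.07 CPM in the controls and 11.8 and 8.64 in those labelled KO (1.07 ± 0.498).

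Ect2, Cenpe, Anln, Kif15 and Ncapg, each at least 2-fold lower in KO LSK or KO MyePro, overlapped between the LT-HSC groups. Most genes did: both libraries labelled KO were below both controls for 13.9% of all genes and above them for 13.8%. Ect2 was at 12.1 and 4.00 CPM in the controls and 11.3 and 6.99 in those labelled KO, and Cenpe at 82.0 and 112 and at 104 and 79.2. Anln was at 46.9 and 49.96 and at 51.4 and 39.0. Kif15 was at 49.6 and 55.9 and at 63.6 and 52.0, and Ncapg at 28.3 and 22.7 and at 27.5 and 15.5. Of these 5, the fold changes ran from -0.25 (Ncapg) to 0.18 (Ect2).

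Other genes described above overlapped too. Bub1 was at 20.8 and 32.1 CPM in the controls and 18.4 and 23.1 in those labelled KO, and Ccnb1 at 10.5 and 21.4 and at 17.7 and 14.5. Ccnb2 was at 58.6 and 45.8 in the controls and 33.1 and 66.3 in those labelled KO. Cdk1 was at 13.1 and 15.1 and at 12.0 and 17.3. Of these, the fold changes ran from -0.35 (Bub1) to 0.06 (Cdk1). Kif11 was at 95.5 and 81.8 in the controls and 103 and 87.8 in those labelled KO, and Ube2c at 32.9 and 49.8 and at 44.3 and 45.4. Birc5 was at 18.1 and 23.7 in the controls and 14.0 and 22.7 in those labelled KO, and Kif23 at 29.7 and 18.6 and at 25.2 and 27.1. Cdc20 (7.88 and 6.68 against 7.40 and 6.34) and Kif20a (6.39 and 2.63 against 4.50 and 3.46) overlapped as well. The fold changes of these 6 genes lay between -0.18 and 0.12.

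**Figure D5:**
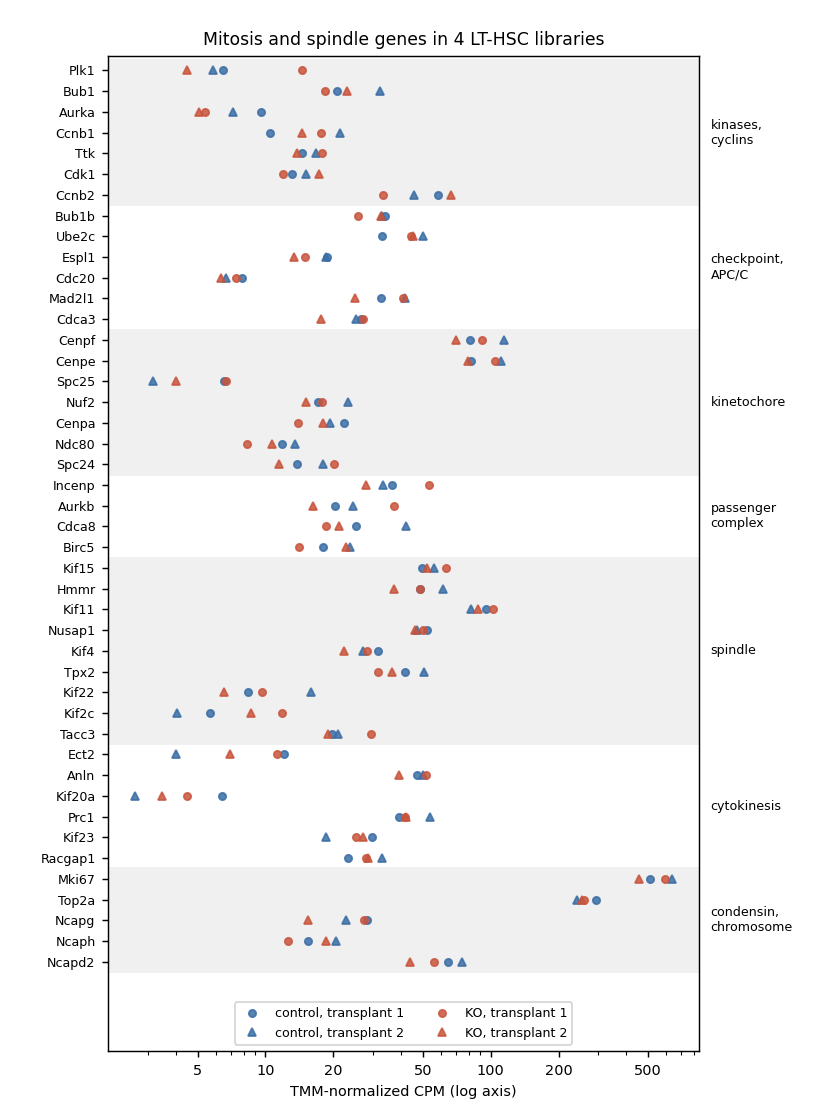
TMM-normalized CPM (log axis) of the 44 genes in the 4 LT-HSC libraries, controls in blue and libraries labelled KO in red, circles for transplant 1 and triangles for transplant 2, grouped by role. Red and blue overlap for 35 genes. Kif2c is the one gene with both red points right of both blue points, an order found for 13.8% of all genes. For 8 genes both red points lie left of both blue points, against 13.9% of all genes.

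By role, the LT-HSC medians ran from -0.28 (kinetochore and centromere, 6 of 7 below 0) through -0.21 (condensin and chromosome structure, 5 of 5 below 0) and -0.19 (checkpoint and anaphase) to between -0.05 and 0.02 for the other groups. No member of any group passed the test. The 73 other mitosis genes had a median of -0.12 with 45 below 0, and DNA replication genes -0.05. Erythroid markers had a median of -1.11 in these libraries. Their summed levels were 465 and 294 CPM in the controls and 241 and 242 in those labelled KO. The summed mitosis levels were 2045 and 2270 in the controls and 2151 and 1831 in those labelled KO. Myeloid progenitor markers summed to 67.3 and 306 CPM (controls of transplants 1 and 2) and 72.8 and 248 (labelled KO). In the same order, mature neutrophil markers were at 74.7, 364, 166 and 249 and T and NK cell markers at 13.2, 54.4, 11.5 and 46.6. Macrophage and dendritic markers were at 13.7, 35.5, 22.3 and 30.6. Megakaryocyte markers were at 467, 332, 343 and 530 and stem cell markers at 832, 463, 760 and 710. The part of these markers in the mitosis values was not tested. Whether the difference between KO and control itself differs between LT-HSC and the progenitors was not tested, since the sets were prepared and counted separately.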

How the data were processed

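RNA counts of 8 libraries were used, and the 6 ChIP-seq samples of the series were not analysed here. The authors deposited unnormalized (raw) counts of reads per gene, a file for each library. Per the submitters' processing notes, tools for the series included TopHat2, Picard 1.126, HTSeq 0.6.0 and DESeq 3.0 with build mm10. Which annotation was counted, and whether by strand, is not given in the sources used here: reads of overlapping genes may be shared. LSK and MyePro files list symbols, and LT-HSC files list Ensembl IDs, of which 37607 were matched to a symbol. Entries that name no gene, the 92 ERCC spike-ins and an unexplained DPY30-SPKIG entry were left out of library sizes. Reads without a feature made up 2.4% to 6.25% of LSK and MyePro totals and 16.7% to 26% of LT-HSC totals.

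The LT-HSC libraries were fitted with edgeR 4.0.16 (R 4.3.3; TMM, quasi-likelihood, two-sided, Benjamini-Hochberg adjusted p under 0.05) on the whole table, with DESeq2 1.42.0 and limma 3.58.1 as alternatives. Libraries of 1 transplant are paired by the labels, and their deviations from the group means correlated at 0.285 across genes. Replicates are pools of mice. For LSK and MyePro, TMM was computed over the 4 libraries, log2 ratios used a prior count of 2, 2-fold counts took genes averaging 5 CPM or more in the 2 libraries compared, and exact conditional binomial 95% intervals cover counting error only. The 2 sets were normalized apart, and levels are not compared between genes, since counts were not divided by transcript length.

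The 44 genes and the other lists were chosen with earlier results of these data known. Named were 21 preset genes, every gene past 2-fold in a KO comparison, the ends of each comparison and, of the 73 other mitosis genes, those with the 2 highest and 2 lowest ratios. Ttk, Espl1, Mad2l1, Nuf2, Spc24, Spc25, Incenp, Cdca8, Prc1, Ncaph, Kif4, Hmmr, Tacc3 and Kif2c complete the groups.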

Additional observations from a re-analysis of the deposited data

Results flagged for a closer look

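Kif2c, the microtubule-depolymerizing kinesin, was above both controls in both LT-HSC libraries labelled KO (log2 fold change 1.07), whereas its ratio was below 0 in LSK (-0.42) and MyePro (-0.53). It was noted because both LT-HSC libraries labelled KO went the opposite way to KO LSK and KO MyePro. Kif2c did not pass the LT-HSC test (edgeR's quasi-likelihood test, p 0.069, adjusted p 0.999). Both libraries labelled KO were above both controls for 13.8% of all genes. The difference between the populations was not tested, and the library labelled KO of transplant 1 goes against its label in Dpy30.

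Racgap1 was lower in KO LSK (-0.29) and not in KO MyePro (0.0287, with a counting interval that spans 0). It was noted for the opposite signs. This difference was not tested either, with 1 library per group.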

How the results depend on the processing

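With 1 library per group, the LSK and MyePro values carry no replicate error. The LT-HSC set has 2 libraries per group, and the Dpy30 level of 1 library labelled KO goes against its label. Of 70 alternatives, 3 changed the sign of a median. Scaling by library totals moved the median of all genes in LSK from -0.06 to 0.09, and relative to it the mitosis genes stayed at -0.58. Their own median became -0.488 in LSK and -0.635 in MyePro, -0.490 in LT-HSC, -0.257 for KO MyePro over LSK, and -0.0517 for control MyePro over LSK, the opposite sign of 0.02. In LSK it turned the split of all genes from 584 lower and 492 higher to 457 lower and 648 higher, and left 5 members 2-fold lower instead of 7 (8 instead of 10 in MyePro). RLE size factors gave -0.618 in LSK, 0.0314 for control and -0.135 for KO MyePro over LSK. Counts thinned to the shallowest library gave -0.618 in LSK, -0.695 in MyePro and -0.00878 for control MyePro over LSK. The cause of these shifts was not tested beyond the scaling itself. In LT-HSC, leaving out 1 library at a time gave medians from -0.266 to 0.000724, the positive one without the library labelled KO of transplant 2. In the paired fit, with transplant as a replicate block, the median was -0.125, 0 members passed the threshold, 4 genes passed in all (2 without the block) and 1 member, Cdca8, had an unadjusted p of 0.038 (edgeR). No alternative called a member, DESeq2 included, although that tool called 14 genes in all. Leaving mitochondrially encoded genes out gave -0.12 with TMM and -0.23 with library totals, the latter a setting added after seeing the data.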

Other observations

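Mki67 took 4.63%, 2.24%, 4.80% and 2.77% of the 44 genes' counts in LSK (control, KO) and MyePro (control, KO), but 25.0% and 28.1% in control LT-HSC and 27.6% and 24.8% in LT-HSC labelled KO. Top2a did not part the sets in this way, at 12.0%, 10.7%, 10.3% and 8.15% in the first and 14.4%, 10.6%, 12.0% and 13.9% in the second, in the same order. Cenpe (0.47% to 0.73% in the first set, 4.01% to 4.91% in the second) and Cenpf (0.66% to 1.26%, 3.84% to 5.06%) also took more in LT-HSC. Plk1 (0.86% to 2.42%, 0.25% to 0.67%), Cdk1 (2.70% to 3.09%, 0.56% to 0.95%), Cdc20 (2.59% to 3.25%, 0.29% to 0.39%) and Ncapd2 (6.66% to 8.64%, 2.39% to 3.28%) took less there. The ratio of Mki67 to Plk1 counts was 2.54, 2.60, 1.99 and 2.59 in the first set and 78.7, 109, 40.9 and 101 in the second. Only the LT-HSC RNA was amplified, and the sets list genes by different identifiers, so cell type and preparation cannot be told apart here.

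The ratio of Mki67 to Plk1 counts was thus close in control and KO LSK and higher in KO than in control MyePro, while that of Mki67 to Cdk1 went from 1.72 to 0.757 in LSK and from 1.56 to 0.974 in MyePro. Genes often used side by side as readouts of proliferation therefore gave different sizes in the same libraries: Mki67 at -1.69 and -1.53, Top2a at -0.80 and -1.08, Cdk1 at -0.51 and -0.85, and Birc5 at -0.25 and -0.35 in LSK and MyePro.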
